A study of Homo sapiens with 51 samples.

Results

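The CXCL12 and KITLG signalling axes were followed through 5 genes taken by name: the receptors CXCR4, ACKR3 and KIT and the ligands CXCL12 and KITLG. They are 5 of the 58051 gene rows in the count table, and all 5 were among the 19603 genes that passed the filter on low counts. RNA was sequenced from the human embryonic stem cell line H1 in 51 libraries that form 17 groups of 3. Cells received BMP4 alone at 50 ng/mL, or Activin at 100 ng/mL with BMP4 at 10 ng/mL (called Activin+BMP4), for 1, 6, 12, 24, 36, 48, 72 or 96 h. The untreated group was kept in mTeSR and sampled only at 0 h. All 16 treated groups were in TeSR E5 medium with insulin at 3.2 µM, FGF2 at 20 ng/mL and an agent spelled LY29004 in the labels at 1 µM. A change against untreated cells thus includes the change of medium and the hours in culture. BMP4 and Activin+BMP4 cultures differed in both Activin and the BMP4 dose. Replicate numbers are given without a word on separate cultures, and the p-values measure the spread between these libraries of 1 cell line.

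Libraries held 22.8 M to 30.4 M counts. Levels are CPM, a gene's counts per M counts of its library, with library sizes adjusted by TMM factors (a trimmed mean of log ratios between libraries). A gene was called in a comparison when it differed at least 2-fold with an adjusted p under 0.05 (edgeR's quasi-likelihood test, Benjamini-Hochberg over all genes tested). In untreated cells the 8 listed pluripotency genes summed to 6700 to 6890 CPM and POU5F1 was at 1570 ± 54.5 CPM (SD, n = 3). In 3 groups 1 library stood apart from the other 2 in its gene counts: replicate 2 of Activin+BMP4 48 h, replicate 3 of Activin+BMP4 96 h and replicate 1 of BMP4 12 h. Without those libraries the number of the 5 genes called was 5 in place of 4 between 96 h and 48 h of Activin+BMP4, 4 in place of 5 at 72 h of Activin+BMP4 against untreated cells, and 4 in place of 3 for the interaction of condition and time. It did not change in the other 24 comparisons.

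CXCL12 is a secreted chemokine that draws cells bearing CXCR4, a receptor coupled to inhibitory G proteins. ACKR3 binds the same chemokine, recruits arrestins in place of G proteins and takes CXCL12 up from the surroundings, so it can lower the amount that CXCR4 meets. KITLG, also called stem cell factor, is the ligand of KIT, a receptor tyrosine kinase that mouse germ cells, melanocytes and blood progenitors need for survival and migration. In zebrafish and mouse embryos the CXCL12 axis guides migrating germ cells, and in zebrafish it also tethers migrating endoderm. Surface CXCR4 and KIT together are a common marker pair for definitive endoderm made from human pluripotent cells.

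CXCR4 (ENSG00000121966) lies at chr2:136114349-136118165 on the minus strand of GRCh38 and ACKR3 (ENSG00000144476) on the plus strand at chr2:236567787-236582358. KIT (ENSG00000157404) spans chr4:54657918-54740715 on the plus strand. CXCL12 (ENSG00000107562) spans chr10:44370165-44386493 on the minus strand and KITLG (ENSG00000049130) chr12:88492793-88580851, also on the minus strand. These positions are those of GENCODE v29. Only KITLG shares bases with another gene there, AC024941.2 on the opposite strand. The strand setting of the authors' counting is not given in the sources used here, so reads of that antisense gene could be among those of KITLG.

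The bases just upstream of CXCR4 and KIT are shown, as a pair of receptor genes whose transcripts separated the conditions late from different starting levels and for which at least 100 bases lay upstream of both the RefSeq and the GENCODE start. Runs of ACKR3, CXCL12 and KITLG are not shown. Both runs end at the base before the gene's GENCODE start, which lies upstream of its RefSeq start. They are read from RefSeq (GRCh38.p14) in the direction of transcription, and capitals mark TATAAA and GGGCGG on either strand. The CXCR4 run is the minus strand of chr2:136118166-136118399 and the KIT run the plus strand of chr4:54657707-54657917.
CXCR4: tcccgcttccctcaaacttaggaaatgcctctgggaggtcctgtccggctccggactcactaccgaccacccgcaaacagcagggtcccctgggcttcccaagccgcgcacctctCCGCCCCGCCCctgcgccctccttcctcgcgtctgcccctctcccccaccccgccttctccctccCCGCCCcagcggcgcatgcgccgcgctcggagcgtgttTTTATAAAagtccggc
KIT: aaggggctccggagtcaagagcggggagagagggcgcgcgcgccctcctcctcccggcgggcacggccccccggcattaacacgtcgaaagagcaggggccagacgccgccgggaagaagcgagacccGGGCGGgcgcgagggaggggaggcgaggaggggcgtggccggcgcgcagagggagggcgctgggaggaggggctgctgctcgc
The 234 bases of CXCR4 were 68.4% G or C and the 211 bases of KIT 76.3%. Medians were 57.7% and 57.3% over 35116 RefSeq promoters cut to the same windows, which also stop short of their RefSeq starts. CXCR4 held TATAAA on both strands in overlapping matches, whose first bases lie 16 and 14 bases before the end of the run. KIT held none in its run, and the bases between that run and the RefSeq start were not searched. TATAAA was present in 10.5% of all promoters over the CXCR4 window and 7.88% over the KIT window. GGGCGG matched 3 times in CXCR4 and 1 time in KIT, and was present in 40.5% and 37.5% of all promoters over those windows. On both strands, 0 matches were found in either run to GATAA, the core that GATA factors read, to ACAAT, a core read by SOX factors, to TGTTTAC, a forkhead core, and to the SMAD palindrome GTCTAGAC. Over the CXCR4 and KIT windows the GATA core was present in 19.8% and 18% of all promoters, the SOX core in 23.7% and 22.1%, the forkhead core in 2.78% and 2.51%, and the SMAD palindrome in 0.174% and 0.162%.

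KITLG was the first of the 5 genes to differ 2-fold between the conditions in libraries with ample counts, at 24 h, and the receptors followed from 48 h. BMP4 cultures had lower CXCR4 at 48, 72 and 96 h, lower KIT at 72 and 96 h, and lower ACKR3 at 96 h after higher ACKR3 at 48 h. KITLG was lower with BMP4 from 24 to 48 h, and CXCL12 was higher with BMP4 at 48 and 96 h. In untreated cells CXCR4 averaged 1.41 ± 0.449 CPM, ACKR3 0.813 ± 0.212, KIT 45.2 ± 1.44, CXCL12 54.9 ± 1.47 and KITLG 20.9 ± 0.765 CPM (SD, n = 3).

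**Figure D1:**
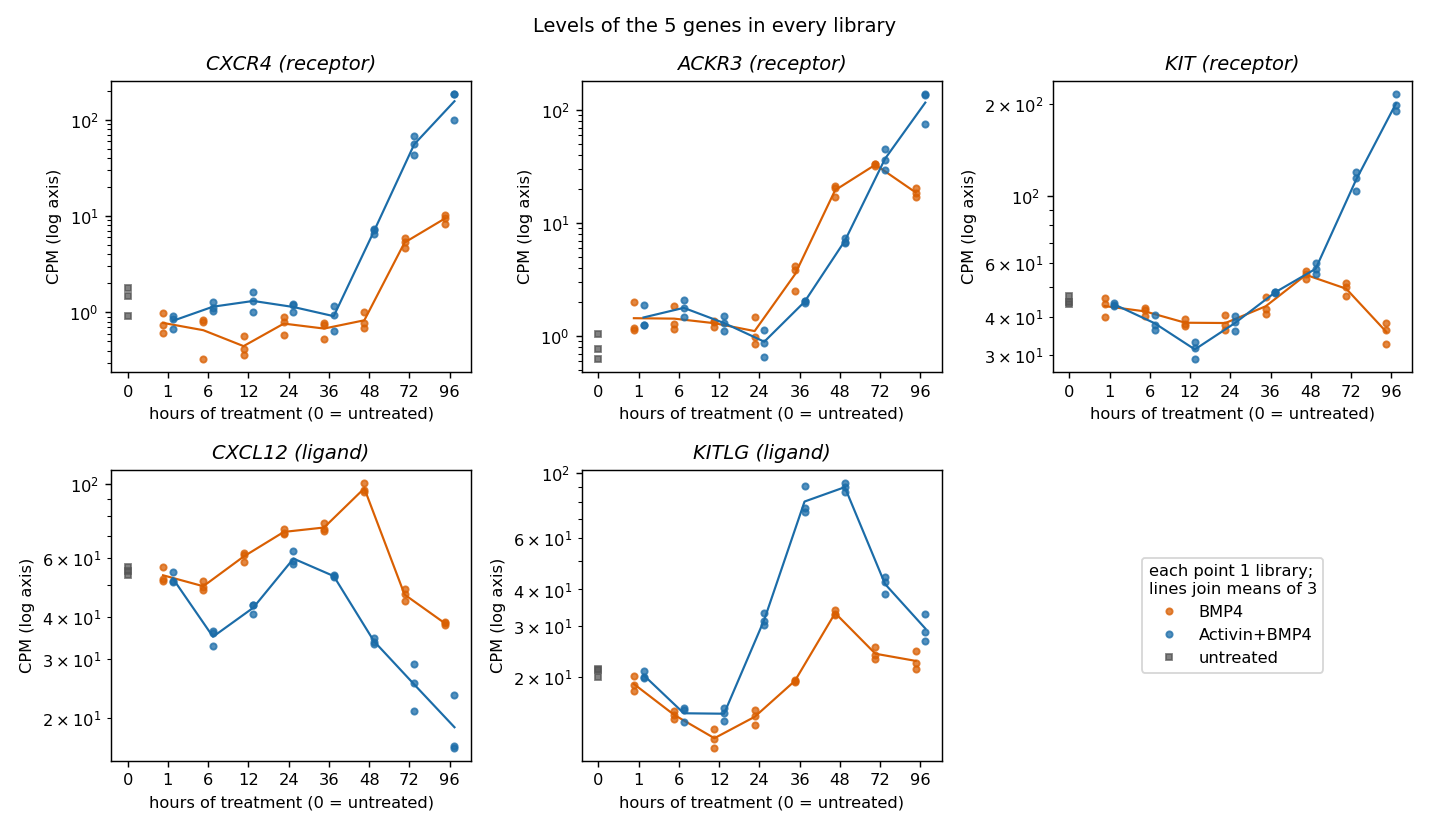
CPM of each gene (log axis) against hours of treatment, with BMP4 libraries in orange, Activin+BMP4 libraries in blue and untreated libraries in grey at 0 h; each point is 1 library and lines join means of 3. CXCR4 of Activin+BMP4 cells climbs to 183 CPM in 2 libraries and 99.6 CPM in the other at 96 h, while no BMP4 library passes 10.3 CPM.

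Between BMP4 and Activin+BMP4, 0 of 5 genes were called at 1 h, where 0.0051% of all tested genes were, and 0 of 5 at 6 h (0.505% of all genes). At an unadjusted p under 0.05 the counts were 0 at 1 h and 2 at 6 h (CXCL12 and KIT), and DESeq2 also called 0 at both times. CXCR4 was the 1 gene called at 12 h (1.42% of all genes), and KITLG the 1 gene called at 24 h (4.01%) and at 36 h (5.58%). At 48 h 4 of 5 were called (9.25%), KIT being the exception. At 72 h 2 of 5 were called (9.63%), CXCR4 and KIT. At 96 h 4 of 5 were called (15.6%), KITLG being the exception.

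Against untreated cells, which serve as the control for all 16 treated groups, BMP4 gave 0 of 5 calls at 1 h, where 1.21% of all tested genes were called, and 0 of 5 at 24 h (7.21% of all genes). CXCR4 was called at 6 h (4.99%) and 12 h (5.62%), CXCR4 and ACKR3 at 36 h (8.41%), ACKR3 at 48 h (12.2%), and CXCR4 and ACKR3 again at 72 h (16.9%) and 96 h (23.2%). Activin+BMP4 gave 0 of 5 calls at 1 h (0.867%), 12 h (6.82%) and 24 h (8.08%), ACKR3 alone at 6 h (5.69%), and ACKR3 and KITLG at 36 h (10.5%). CXCR4 joined these at 48 h (3 of 5; 15.8%), all 5 genes were called at 72 h (21%), and 4 at 96 h (26.5%), KITLG being the exception. Where the count was 0, DESeq2 called 0 too, and at an unadjusted p under 0.05 edgeR's test gave 2 genes at 1 h and 4 at 24 h of BMP4, and 2 at 1 h, 3 at 12 h and 2 at 24 h of Activin+BMP4. Between 96 h and 48 h, 2 of 5 were called with BMP4 (12.8% of all genes) and 4 of 5 with Activin+BMP4 (16.5%).

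**Figure D2:**
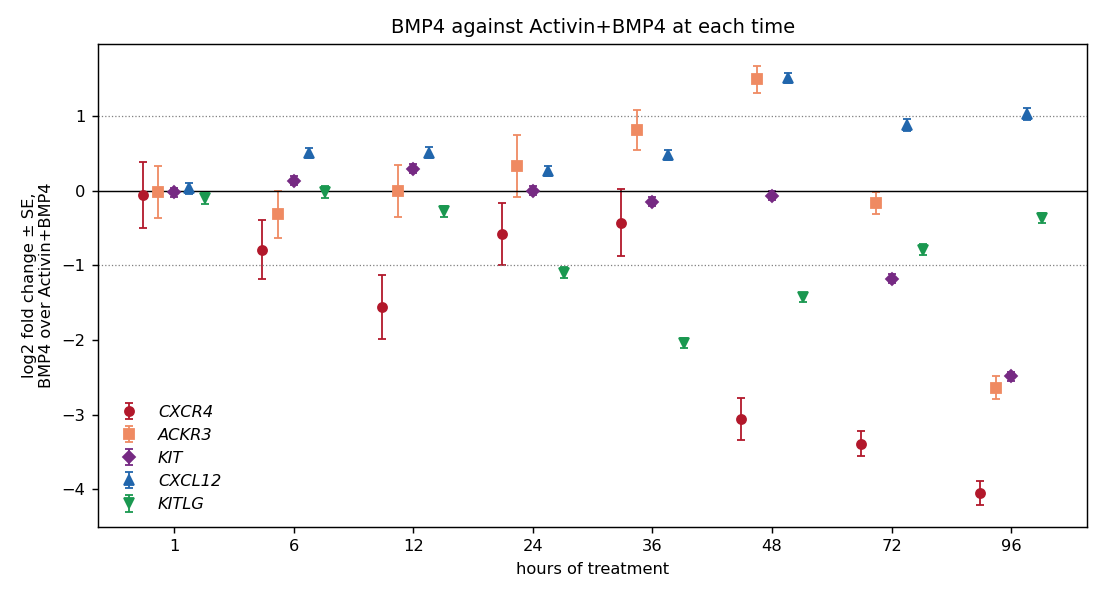
Log2 fold change of BMP4 over Activin+BMP4 (edgeR, ± SE) at each hour for the 5 genes, with dotted lines at the 2-fold threshold. CXCR4 goes down to -4.05 at 96 h, ACKR3 changes side between 48 h (1.49) and 96 h (-2.64), and KITLG is furthest below 0 at 36 h (-2.04).

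CXCR4 was scarce at the start. Up to 36 h the 18 untreated and Activin+BMP4 libraries held 15 to 45 counts of it, and up to 48 h the 21 untreated and BMP4 libraries held 9 to 45. At 12 h the BMP4 libraries had 0.413, 0.364 and 0.565 CPM, against 1.01, 1.62 and 1.31 CPM with Activin+BMP4. The groups did not overlap, and the log2 fold change was -1.56 ± 0.43 (SE; edgeR adjusted p = 0.0139). That call rests on few counts: the adjusted p was 0.0626 without BMP4 replicate 1, 0.0698 without BMP4 replicate 2 and 0.0974 without Activin+BMP4 replicate 2. Against untreated cells, BMP4 gave -1.09 at 6 h, -1.65 at 12 h and -1.06 at 36 h, all called, and -0.89 at 24 h, not called. Of these calls, the one at 12 h was kept whichever library was left out. The one at 6 h was lost without untreated replicate 1 (adjusted p = 0.0671), untreated replicate 2 (0.148) or BMP4 replicate 2 (0.143). The one at 36 h was lost without untreated replicate 1 (0.078) or 2 (0.165) or without BMP4 replicate 1 (0.0563), 2 (0.0523) or 3 (0.127), and a call at 24 h appeared without untreated replicate 3 (0.0337).

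From 48 h CXCR4 rose in both conditions, later and less with BMP4. At 48 h BMP4 libraries had 1.01, 0.692 and 0.785 CPM, all inside the range of untreated and earlier libraries, and Activin+BMP4 libraries had 6.45, 7.11 and 7.32 CPM. The fold change was -3.06 ± 0.28 on the log2 scale (adjusted p = 3.79e-12). At 72 h the values were 4.69, 5.91 and 5.32 CPM in BMP4 libraries and 68.0, 55.4 and 42.9 CPM in Activin+BMP4 libraries, a 10.4-fold difference. The 3 BMP4 libraries at 72 h thus lay below all 3 Activin+BMP4 libraries at 48 h. At 96 h they were 9.57, 10.3 and 8.35 CPM in BMP4 libraries and 183, 183 and 99.6 CPM in Activin+BMP4 libraries, with a log2 change of -4.05 ± 0.16 (adjusted p = 2.26e-24). Against untreated cells the level at 96 h was 6.63-fold higher with BMP4 and 110-fold higher with Activin+BMP4. In bulk RNA, fewer cells with a transcript and less of it per cell cannot be told apart, here and for the other 4 genes.

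The rise of CXCR4 between 48 h and 96 h was 3.49 ± 0.27 with BMP4 and 4.48 ± 0.17 with Activin+BMP4 on the log2 scale. Their difference of -0.99 ± 0.39 had an adjusted p of 0.0328 but was under the 2-fold limit (3 of 5 genes were called for this interaction, against 15.7% of all genes). It was -1.22 (0.000839) without Activin+BMP4 96 h replicate 3, and it also passed the limit without Activin+BMP4 48 h replicate 3 (-1.02), BMP4 48 h replicate 2 (-1.10) or BMP4 96 h replicate 2 (-1.06).

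ACKR3 rose in both conditions and changed sides between them. Up to 24 h all treated and untreated libraries held 15 to 57 counts of it. Activin+BMP4 cells at 6 h were 1.12 ± 0.37 above untreated cells on the log2 scale (adjusted p = 0.0141), a call that was lost without untreated replicate 3 (0.0671) or Activin+BMP4 6 h replicate 3 (0.0629). At 48 h BMP4 libraries had 20.5, 21.2 and 17.15 CPM and Activin+BMP4 libraries 6.72, 6.78 and 7.39 CPM. The groups were well apart, with BMP4 2.81-fold higher (log2 1.49 ± 0.18, adjusted p = 2.22e-09). At 72 h they overlapped, with 32.0, 33.7 and 33.2 CPM in BMP4 libraries inside the 45.7, 36.3 and 29.6 CPM of Activin+BMP4 libraries (log2 -0.17 ± 0.15, adjusted p = 0.381). At 96 h the order was the other way round. BMP4 libraries had 18.6, 20.5 and 17.03 CPM, and Activin+BMP4 libraries 139, 136.5 and 75.7 CPM, a log2 fold change of -2.64 ± 0.15 (adjusted p = 4.91e-19).

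With BMP4, ACKR3 at 96 h was close to its level at 48 h (-0.07 ± 0.16, adjusted p = 0.758), although it had passed through 33.0 ± 0.839 CPM at 72 h. With Activin+BMP4 it rose 16.8-fold over the same interval. The interaction was -4.13 ± 0.23 on the log2 scale (adjusted p = 5.55e-19), the widest of the 5 genes. Against untreated cells ACKR3 was 22.8-fold higher at 96 h of BMP4 and 143-fold higher at 96 h of Activin+BMP4.

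KIT differed from both chemokine receptors in that it was well expressed from the start. It lay between 29.1 and 60.05 CPM in every library up to 48 h. At 48 h the conditions overlapped, with 56.4, 55.2 and 53.3 CPM in BMP4 libraries and 55.2, 57.3 and 60.05 CPM in Activin+BMP4 libraries. At 72 h BMP4 libraries had 51.6, 46.9 and 50.1 CPM and Activin+BMP4 libraries 119.5, 114 and 103 CPM. KIT was 2.27-fold lower with BMP4 (log2 -1.18 ± 0.06, adjusted p = 1.11e-20). At 96 h the values were 36.35, 32.6 and 38.1 CPM in BMP4 libraries and 198, 215 and 189.8 CPM in Activin+BMP4 libraries, against 44.7, 44.2 and 46.9 CPM in untreated libraries. The BMP4 libraries were the lowest of these libraries and the Activin+BMP4 libraries the highest, with a log2 fold change of -2.49 ± 0.06 between the conditions (adjusted p = 3.2e-32). Against untreated cells KIT rose 4.44-fold with Activin+BMP4 at 96 h, and the BMP4 difference of -0.34 ± 0.06 (adjusted p = 7.99e-06) was under the 2-fold limit. The interaction between 48 h and 96 h was -2.43 ± 0.08 (adjusted p = 9.97e-26). An early dip in KIT was also under that limit, with 38.3 ± 1.08 CPM in BMP4 cells and 31.3 ± 1.99 CPM in Activin+BMP4 cells at 12 h. Against untreated cells the log2 change was -0.24 ± 0.06 with BMP4 (edgeR adjusted p = 0.00209) and -0.53 ± 0.06 with Activin+BMP4 (6.42e-09). Between the conditions it was 0.29 ± 0.06 (adjusted p = 0.00135).

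CXCL12, the ligand of CXCR4 and ACKR3, ran against both receptors in Activin+BMP4 cells. With BMP4 it also ran against CXCR4 late, falling 2.52-fold between 48 h and 96 h while CXCR4 rose 11.2-fold. At 6 h BMP4 libraries had 48.2, 49.1 and 51.1 CPM and Activin+BMP4 libraries 32.8, 35.85 and 36.4 CPM. The groups did not overlap, but the log2 difference of 0.50 ± 0.07 (adjusted p = 4.51e-06) was under the 2-fold limit, as were those at 12, 24, 36 and 72 h (0.26 to 0.88); at 72 h it was 1.01 and called without Activin+BMP4 replicate 3. CXCL12 stood highest at 48 h of BMP4, with 94.5, 100.4 and 95.35 CPM, against 33.8, 34.7 and 33.3 CPM at 48 h of Activin+BMP4. BMP4 was 2.85-fold higher there (log2 1.51 ± 0.07, adjusted p = 4.04e-21). At 96 h the values were 37.9, 38.5 and 38.75 CPM in BMP4 libraries and 16.4, 16.6 and 23.5 CPM in Activin+BMP4 libraries. The log2 difference of 1.03 ± 0.08 (adjusted p = 8.36e-15) lay at the limit, and without Activin+BMP4 replicate 1 or 2 it was 0.94 or 0.93, no longer called. Against untreated cells CXCL12 fell 2.92-fold at 96 h of Activin+BMP4. The decrease between 48 h and 96 h was called with BMP4 (-1.33 ± 0.07) and not with Activin+BMP4 (-0.85 ± 0.08), where it was -1.03 and called without 96 h replicate 3.

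KITLG moved before its receptor. At 36 h BMP4 libraries had 19.5, 19.5 and 19.35 CPM and Activin+BMP4 libraries 76.1, 73.8 and 90.3 CPM, against 21.2, 20.0 and 21.4 CPM in untreated libraries. The Activin+BMP4 libraries stood alone above both other groups. KITLG was 4.12-fold lower with BMP4 (log2 -2.04 ± 0.07, adjusted p = 4.11e-26), at a time when KIT was at 43.3 ± 2.9 CPM in BMP4 cells and 48.2 ± 0.162 CPM in Activin+BMP4 cells. At 24 h the difference was -1.10 ± 0.07 and at 48 h -1.43 ± 0.06, both called. At 48 h BMP4 libraries had 32.7, 33.9 and 33.0 CPM and Activin+BMP4 libraries 90.0, 92.7 and 86.4 CPM. The group mean of Activin+BMP4 was the highest of the 17 there, with a range that overlapped that of Activin+BMP4 at 36 h. By 96 h the libraries had come close, with 24.6, 21.3 and 22.3 CPM in BMP4 cells and 26.7, 32.8 and 28.7 CPM in Activin+BMP4 cells (log2 -0.37 ± 0.07, adjusted p = 1.37e-05, under the 2-fold limit). KITLG fell 3.05-fold between 48 h and 96 h of Activin+BMP4, while KIT rose 3.49-fold. The interaction for KITLG was 1.06 ± 0.09 (adjusted p = 1.12e-12). At 72 h of Activin+BMP4 KITLG was 2-fold above untreated cells (log2 1.00 ± 0.07), at the limit, and 6 of 8 other settings and 4 of 6 fits without 1 library put it just under, at 0.96 to 1.00.

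Ratios of transcripts within a library were taken on levels per length, CPM per kb of the gene's merged exons. At 48 h the ratio of ACKR3 to CXCR4 was 23.9 ± 5.46 with BMP4 and 0.987 ± 0.0446 with Activin+BMP4, and it was 0.593 ± 0.154 in untreated cells (SD, n = 3). The BMP4 and untreated ratios rest on few counts. CXCR4 had 26, 17 and 19 counts in BMP4 48 h libraries and 37, 45 and 22 in untreated libraries, where ACKR3 had 26, 19 and 15. At 96 h the ratio of ACKR3 to CXCR4 was 1.96 ± 0.0451 with BMP4 and 0.743 ± 0.00803 with Activin+BMP4. In Activin+BMP4 cells the receptors thus kept a mean ratio between 0.662 and 0.987 from 48 to 96 h, while CXCR4 rose 22.3-fold and ACKR3 16.8-fold. At 72 h, between those times, the ratio was 6.16 ± 0.556 with BMP4 and 0.662 ± 0.0177 with Activin+BMP4. The ratio of CXCL12 to CXCR4 was 1.51 ± 0.172 with BMP4 and 0.0508 ± 0.0309 with Activin+BMP4 at 96 h, against 15.6 ± 6.07 in untreated cells. The ratio of KITLG to KIT at 36 h was 0.403 ± 0.0257 with BMP4 and 1.49 ± 0.171 with Activin+BMP4. At 96 h it lay the other way, at 0.573 ± 0.0424 with BMP4 and 0.131 ± 0.00885 with Activin+BMP4. With 3 libraries against 3, a two-sided exact permutation test cannot give less than p = 0.1; 18 of the 24 comparisons of these 3 ratios at 8 times gave that value, including all those named here between conditions (smallest Benjamini-Hochberg adjusted p = 0.133).

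**Figure D3:**
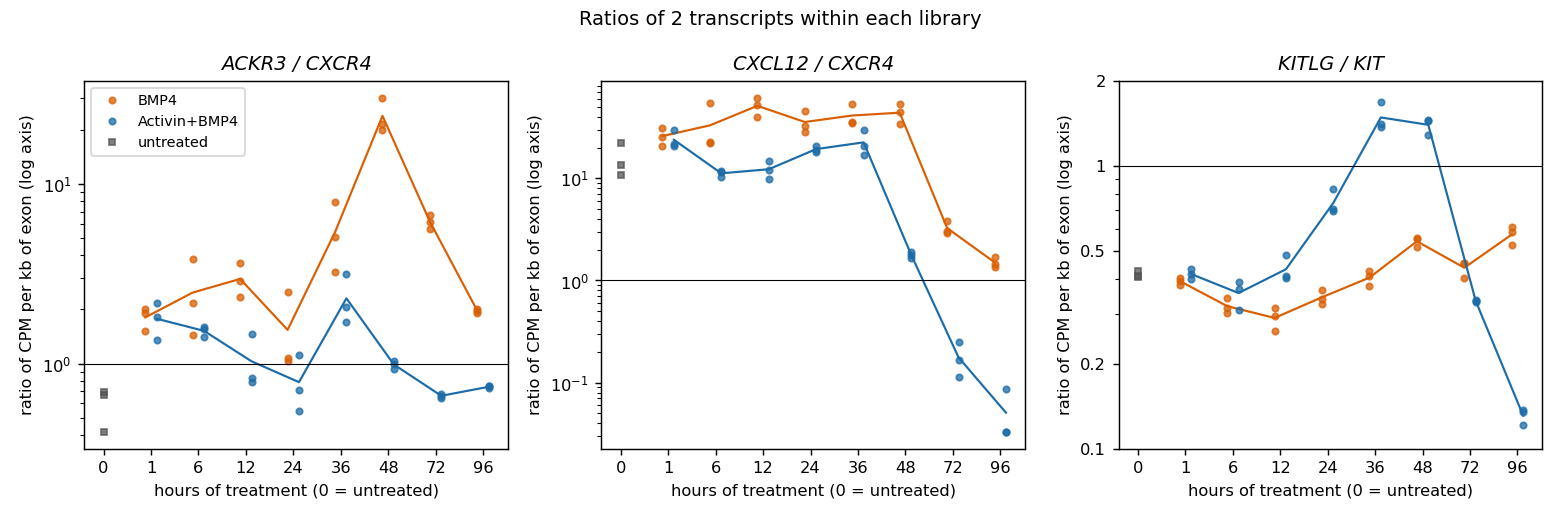
Ratios of CPM per kb of exon within each library (log axis) against hours of treatment for ACKR3 to CXCR4, CXCL12 to CXCR4 and KITLG to KIT; BMP4 in orange, Activin+BMP4 in blue, untreated in grey, lines through means of 3. The ACKR3 to CXCR4 ratio peaks at 23.9 at 48 h of BMP4, over 17 to 26 counts of CXCR4 per library. The KITLG to KIT ratio changes side between 48 h and 72 h.

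Per length, with merged exons taken as each gene's length, the order of the 5 mean levels at 96 h also differed. With BMP4 ACKR3 averaged 8.29 ± 0.77 CPM per kb, KIT 6.42 ± 0.503, CXCL12 6.32 ± 0.0706, CXCR4 4.23 ± 0.444 and KITLG 3.67 ± 0.272 CPM per kb. Libraries of KIT (5.86 to 6.85) spanned those of CXCL12 (6.24 to 6.38) there. Those of CXCR4 (3.76 to 4.64) overlapped those of KITLG (3.44 to 3.97). With Activin+BMP4 CXCR4 averaged 69.8 ± 21.7 CPM per kb, ACKR3 51.8 ± 15.8, KIT 36.1 ± 2.33, KITLG 4.74 ± 0.506 and CXCL12 3.1 ± 0.671. In untreated cells CXCL12 was at 9.04 ± 0.243, KIT at 8.13 ± 0.259, KITLG at 3.36 ± 0.123, CXCR4 at 0.632 ± 0.202 and ACKR3 at 0.36 ± 0.0939 CPM per kb. By mean, the receptor pair for CXCL12 was thus the lowest of the 5 in untreated cells and the highest at 96 h of Activin+BMP4. In replicate 3 of the latter, KIT (34.1 CPM per kb) lay just above ACKR3 (33.5).

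**Figure D4:**
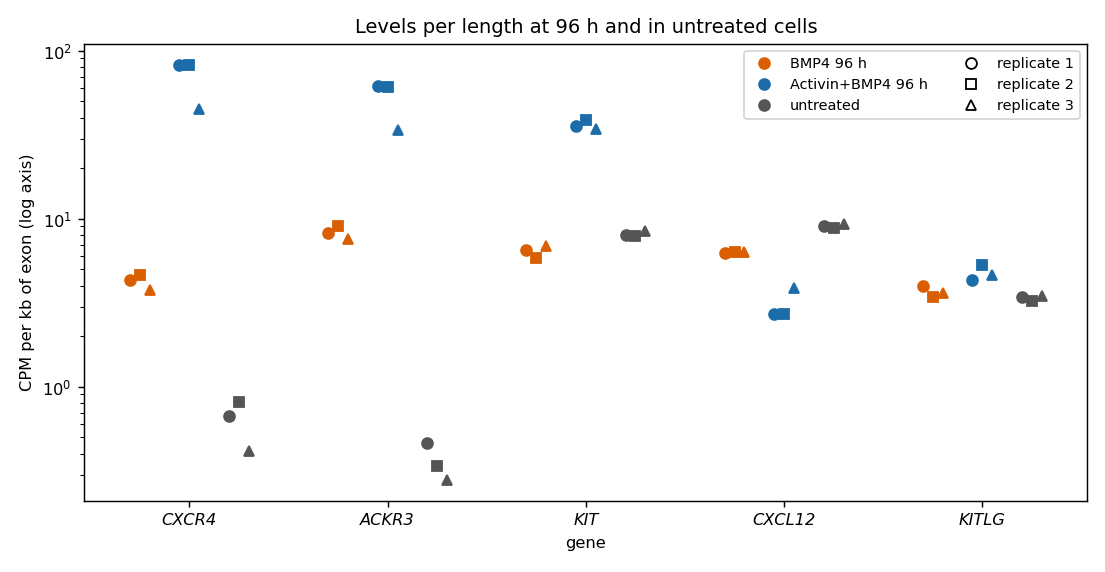
CPM per kb of exon (log axis) of the 5 genes in each library at 96 h of BMP4 (orange), 96 h of Activin+BMP4 (blue) and in untreated cells (grey), with a marker shape for each replicate. In the Activin+BMP4 group, replicate 3 (triangle) lies below the other 2 for CXCR4 and ACKR3 and above them for CXCL12.

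Replicate 3 of Activin+BMP4 96 h set the width of that group. It had 99.6 CPM of CXCR4 against 183 in both other libraries and 75.7 CPM of ACKR3 against 139 and 136.5, with 23.5 CPM of CXCL12 against 16.4 and 16.6. Its KIT level of 189.8 CPM was near the 198 and 215 of the others. All 12 definitive endoderm genes were lowest in it, for example CER1 at 2412 CPM against 3203 and 3135 and SOX17 at 152 CPM against 182 and 178, while the 8 pluripotency genes were split. POU5F1 was highest in it at 942.5 CPM against 754 and 735, as were SOX2, DPPA4, LIN28A, ZFP42 and UTF1, whereas TDGF1 was lowest in it at 794.6 CPM against 828.6 and 864.6, and NANOG differed little at 114.8 CPM against 115.4 and 115.9. The part of these levels in the receptors' values was not tested. CXCR4, ACKR3 and KIT of all 3 libraries, replicate 3 included, lay above every BMP4 library at 96 h.

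Ordered over the 17 groups by mean level, CXCR4 was highest at 96 and 72 h of Activin+BMP4, then at 96 h of BMP4, 48 h of Activin+BMP4 and 72 h of BMP4, with no overlap between neighbours down to untreated cells, and all neighbours overlapped among the other 12 groups. ACKR3 was highest at 96 h of Activin+BMP4, after which 72 h of Activin+BMP4 and of BMP4 overlapped, as did 48 and 96 h of BMP4, and the 10 lowest groups overlapped from neighbour to neighbour. For KIT 96 h and 72 h of Activin+BMP4 stood alone at the top, and 48 h of Activin+BMP4 and of BMP4 overlapped below them. CXCL12 stood alone at 48 h of BMP4 at the top and overlapped between 72 and 96 h of Activin+BMP4 at the bottom. KITLG overlapped between 48 and 36 h of Activin+BMP4 at the top, and 12 h of BMP4 was lowest and apart. Of 16 pairs of neighbours, the ranges overlapped in 11 for CXCR4, 11 for ACKR3, 11 for KIT, 9 for CXCL12 and 10 for KITLG. The highest group mean was 347-fold the lowest for CXCR4, 144-fold for ACKR3, 6.42-fold for KIT, 5.14-fold for CXCL12 and 7.25-fold for KITLG.

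Most other chemokine receptors and ligands did not pass the filter on low counts. Of 21 other chemokine receptors 8 passed the filter, and at 96 h 2 were higher and 1 was lower with BMP4 (median log2 fold change 0.66, against 0.00 over all genes, of which 15.6% were called). In no library did any of the 8 pass 2.08 CPM. CCR1, an inflammatory chemokine receptor, was at 1.43 ± 0.331 CPM in BMP4 cells and 0.0475 ± 0.0231 CPM in Activin+BMP4 cells. Of 39 other chemokine ligands 10 passed the filter, with 2 higher and 4 lower with BMP4 at 96 h (median -0.49), beside the same 15.6% of all genes. CCL2, a chemokine that attracts monocytes, was at 1.37 ± 0.211 CPM in BMP4 cells and 68.2 ± 8.55 CPM in Activin+BMP4 cells at 96 h, 49.8-fold lower with BMP4 (log2 -5.64 ± 0.17, adjusted p = 7.6e-29). At 72 h it was at 1.34 ± 0.495 CPM in BMP4 cells and 19.7 ± 1.98 CPM in Activin+BMP4 cells, and it was at 0.997 ± 0.397 CPM in untreated cells. CXCL14, a chemokine made by many epithelia, was called in opposite directions at 48 and 96 h. It was at 1.45 ± 0.116 CPM in BMP4 cells and 7.38 ± 0.633 CPM in Activin+BMP4 cells at 48 h, and at 96 h 5.32 ± 0.242 CPM in BMP4 cells and 2.63 ± 0.477 CPM in Activin+BMP4 cells. CCR1 and CXCL14, both under 10 CPM, were picked after their values were seen.

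Partners of CXCR4 and ACKR3, a list of G protein subunits, receptor kinases, arrestins, alternative ligands and modifiers, had 19 of 20 listed genes tested. At 48 h 1 was higher and 2 were lower with BMP4 (median -0.03), where 9.25% of all genes were called, and at 96 h 1 was higher and 2 were lower (median 0.10), where 15.6% of all genes were. ARRB1, which encodes an arrestin, was at 22.9 ± 1.63 CPM in BMP4 cells and 70.5 ± 12.5 CPM in Activin+BMP4 cells at 96 h (log2 -1.62 ± 0.09, adjusted p = 7.33e-19), and at 9.75 ± 1.01 CPM in untreated cells. RGS16, which speeds the switching off of inhibitory G proteins, was lower with BMP4 at 36 h, at 10.6 ± 0.598 CPM against 58.4 ± 2.07 CPM with Activin+BMP4 (log2 -2.46 ± 0.09). By 96 h it was at 44 ± 5.3 CPM in BMP4 cells and 24.9 ± 2.82 CPM in Activin+BMP4 cells, and its interaction was 2.65 ± 0.12 (adjusted p = 2.42e-22). ADM, a peptide hormone that ACKR3 also binds, was higher with BMP4 at 36 h (74.9 ± 4.11 CPM in BMP4 cells, 29 ± 0.858 CPM in Activin+BMP4 cells) and lower at 96 h (12.8 ± 0.633 CPM in BMP4 cells, 37 ± 12.3 CPM in Activin+BMP4 cells). DPP4, a protease that cuts CXCL12, rose 4.07-fold between 48 h and 96 h of BMP4, to 10.1 ± 1.45 CPM at 96 h against 2.48 ± 0.288 CPM at 48 h. With Activin+BMP4 it rose too, from 1.81 ± 0.28 CPM at 48 h to 5.47 ± 1.78 CPM at 96 h. Untreated cells had 6.53 ± 0.938 CPM of DPP4. GNAI1, an inhibitory G protein subunit, was 2.07-fold above untreated cells at 96 h of BMP4. It was at 45.8 ± 0.608 CPM there, 38.5 ± 2.82 CPM at 96 h of Activin+BMP4 and 22.1 ± 1.13 CPM in untreated cells.

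Of the other receptors of KIT's class, PDGFRA, PDGFRB and CSF1R were higher with BMP4 at 96 h. The 11 other class III receptor tyrosine kinases and their ligands were all tested, with 2 higher and 2 lower with BMP4 at 48 h (median -0.11; 9.25% of all genes called) and 4 higher and 2 lower at 96 h (median 0.38; 15.6%). PDGFRA, a receptor of platelet-derived growth factor, was at 6.76 ± 0.79 CPM in BMP4 cells and 66.7 ± 3.26 CPM in Activin+BMP4 cells at 48 h, and at 96 h it was at 155 ± 13.1 CPM in BMP4 cells and 36.2 ± 7.57 CPM in Activin+BMP4 cells. Its interaction was 5.40 ± 0.17 on the log2 scale (adjusted p = 9.58e-28). PDGFRB, its close relative, was at 95.5 ± 4.83 CPM in BMP4 cells and 10.7 ± 0.947 CPM in Activin+BMP4 cells at 96 h (log2 3.15 ± 0.07, adjusted p = 1.85e-34). CSF1R, the receptor of macrophage colony stimulating factor, held 583 counts over the BMP4 libraries and 6 over the Activin+BMP4 libraries at 96 h, or 6.93 ± 1.34 CPM in BMP4 libraries and 0.069 ± 0.0317 CPM in Activin+BMP4 libraries. Its ligand CSF1 was at 16.5 ± 0.419 CPM in BMP4 cells and 5.11 ± 0.226 CPM in Activin+BMP4 cells (log2 1.69 ± 0.11, adjusted p = 6.85e-17). PDGFD, a ligand of PDGFRB, was lower with BMP4, at 3.73 ± 0.551 CPM against 10.8 ± 3.13 CPM with Activin+BMP4.

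Among 19 signalling partners of KIT, all tested, 1 was called at 48 h, higher with BMP4 (median 0.02; 9.25% of all genes called), and 2 were called at 96 h, both higher with BMP4 (median -0.12; 15.6% of all genes). The Src family kinases LYN and SRC were the 2, at 88.3 ± 5.82 and 224 ± 14.9 CPM in BMP4 libraries and at 35.4 ± 1.71 and 92.9 ± 9.51 CPM in Activin+BMP4 libraries. LYN was at 96.7 ± 1.01 CPM in untreated cells, and its Activin+BMP4 level at 96 h was 2.73-fold below that (log2 -1.45 ± 0.04, adjusted p = 8.04e-29). GAB2, an adaptor that carries signals from KIT to PI3 kinase, was higher with BMP4 at 48 h, at 45.6 ± 0.459 CPM against 18.7 ± 0.596 CPM with Activin+BMP4 (log2 1.29 ± 0.07). Its interaction was -2.08 ± 0.09 (edgeR adjusted p = 1.74e-22). For the interaction 2 of the 19 partners were called higher and 3 lower, where 15.7% of all genes were called. LYN (1.05 ± 0.06) and SRC (1.04 ± 0.08) were the 2 higher, and GAB2 was among the 3 with the sign of KIT's own. PIK3R1, the regulatory subunit of PI3 kinase, was at 23.5 ± 0.802 CPM in BMP4 cells and 69.2 ± 4.21 CPM in Activin+BMP4 cells at 24 h (log2 -1.56 ± 0.08, adjusted p = 2.48e-20), the time at which KITLG first differed by the 2-fold limit.

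Marker genes of cell types were read beside the 5 genes, against 9.25% of all genes called at 48 h and 15.6% at 96 h. All 12 definitive endoderm genes were lower with BMP4 at 48 and at 96 h, and their summed level at 96 h was 303 to 376 CPM in BMP4 libraries and 3640 to 4780 CPM in Activin+BMP4 libraries, against 8.24 to 8.77 CPM in untreated cells. At 48 h, before KIT differed, that sum was already 332 to 348 CPM in BMP4 libraries and 3160 to 3310 CPM in Activin+BMP4 libraries. Germ cell genes were mixed at 96 h, with 1 higher and 3 lower of 8 tested (of 9 listed), and SOX17 and PRDM1 are also on the endoderm list. The germ cell list summed to 71.9 to 73.8 CPM in BMP4 libraries and 266 to 308 CPM in Activin+BMP4 libraries. Most of the latter sum was SOX17 (mean 171 CPM) and PRDM1 (75.3 CPM), which averaged 10.5 and 6.07 CPM after BMP4. Of the other germ cell genes above 10 CPM, PRDM14 was level (30.9 CPM after BMP4, 30.8 after Activin+BMP4). TFAP2C stood higher after BMP4 (22.7 CPM) than after Activin+BMP4 (14.5 CPM), but by less than the 2-fold limit. Near the floor at 96 h, NANOS3 averaged 0.904 CPM after BMP4 and 0.234 CPM after Activin+BMP4. DPPA3 averaged 0.318 and 1.13 CPM, and DAZL 1.22 and 1.03 CPM. The defining germ cell genes DDX4, NANOS3 and DND1 did not pass 0.173, 1.44 and 0.549 CPM in any library. Endothelial and blood genes had 6 of 8 tested (of 12 listed) higher and 1 lower with BMP4 at 96 h. At 48 h 1 was higher and 2 were lower. Their sum was 291 to 306 CPM in untreated cells. At 96 h it was 831 to 1080 CPM in BMP4 libraries and 216 to 227 CPM in Activin+BMP4 libraries, mostly KDR. GATA2 averaged 49.5 CPM in BMP4 libraries and 0.498 CPM in Activin+BMP4 libraries, TEK 68.3 and 23.5 CPM, and RUNX1 17.2 and 3.55 CPM. CD34 lay the other way, at 0.37 and 3.61 CPM. PTPRC, GATA1, PECAM1 and TAL1, the listed genes that failed the filter on low counts, did not pass 0.413, 0.0879, 0.536 and 0.264 CPM in any library. Mesoderm and mesenchyme genes were higher with BMP4 in 13 of 13 at 96 h, whereas at 48 h 3 were higher and 6 lower (median -1.16). They summed to 153 to 166 CPM in untreated cells. At 96 h the sum was 1650 to 1860 CPM in BMP4 libraries and 113 to 117 CPM in Activin+BMP4 libraries. Of 4 melanocyte and neural crest genes tested (of 6 listed) 2 were called at 96 h, both lower with BMP4, and TYR did not pass 0.0741 CPM in any library. The sum of that list leaned the other way, from 53.6 to 67.4 CPM after BMP4, overlapping the 38.8 to 59.7 CPM seen after Activin+BMP4. Most of it was PMEL, which was not called and averaged 52.4 CPM after BMP4 and 27.8 after Activin+BMP4. Amnion genes were higher with BMP4 in 10 of 10 at 48 h and 9 of 10 at 96 h, the exception being GATA3, and their sum at 96 h was 1520 to 1740 CPM in BMP4 libraries and 45.1 to 62.1 CPM in Activin+BMP4 libraries, against 20.7 to 25.7 CPM in untreated cells. Of the 8 pluripotency genes 1 was called higher with BMP4 at 48 h and 2 lower at 96 h, when they summed to 3020 to 3210 CPM in BMP4 libraries and 3930 to 4300 CPM in Activin+BMP4 libraries. The part of these cell types in the levels of the 5 genes was not tested.

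The genes whose group means ran most like those of each of the 5 were found over the 17 groups among 11153 genes that reached 10 CPM in some group, by Pearson's r of log2 CPM, as a description. For CXCR4 they included CTBS (r = 0.983), GNB1 (0.976), CALM3 and S1PR3 (both 0.975). S1PR3, a receptor of sphingosine 1-phosphate, was at 58.8 ± 4.97 CPM in BMP4 cells and 195 ± 28.2 CPM in Activin+BMP4 cells at 96 h, against 8.38 ± 0.861 CPM in untreated cells. For ACKR3 they were PPCS, PHF2, MIEN1, PTPRM and ZFAND3 (0.967 to 0.962), and for KIT USP2, CCNG1, ACSM4, SLC5A9 and CMTM4 (0.971 to 0.950). For CXCL12 they were TUBA5P, CGN, VAT1L, NAV2 and RBM4B (0.943 to 0.884), and for KITLG LMNB1, RYK, SUCLA2, EIF2A and EOGT (0.941 to 0.915). Among the 5 genes themselves r over the same groups was 0.84 between CXCR4 and ACKR3, 0.84 between CXCR4 and KIT, 0.75 between ACKR3 and KIT, -0.85 between CXCR4 and CXCL12, -0.54 between ACKR3 and CXCL12 and 0.41 between KIT and KITLG. All 17 points come from 1 cell line and share the order of times.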

How the data were processed

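RNA was extracted with a QIAGEN RNeasy kit and made into libraries with the KAPA RNA HyperPrep kit, per the labels' protocols. The build GRCh38 and the tools STAR 2.5.2a, RSEM 1.3.0 and cutadapt 1.5 are named, without roles, per the submitters' processing notes. Deposited values are whole numbers, used as counts, for 58051 gene IDs in 51 libraries; whether the authors counted reads or rounded RSEM estimates, and the strand setting, are not given in the sources used here. All 51 columns were matched to samples by name. Symbols were matched for 57447 rows (99.0%) through gene name tables and GENCODE v29, which also gave coordinates and exon lengths and need not be the authors' annotation.

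The counts were fitted in edgeR 4.0.16 (R 4.3.3). Genes were kept by filterByExpr (minimum count 10, minimum total 15), which left 19603 genes with 99.95% of counts. One model with 1 mean per group was fitted to all 51 libraries with TMM factors (0.966 to 1.03) and tested by quasi-likelihood F test in 27 comparisons, with Benjamini-Hochberg adjustment within each. The fit was tested on simulated data. Alternatives were RLE factors, no scaling factors, no filter, a stricter filter (a mean of 1 CPM or more, and that level in 3 libraries), DESeq2 1.42.0, only the groups compared, replicate number as a block and each library left out in turn; leaving out the 3 libraries that stand apart was chosen after seeing the data. A library stood apart when its chi-square per gene to both others of its group was at least 3 times that between those 2.

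The 5 genes, the gene lists and the rules were chosen with earlier results of these data known. Beside the 5 genes, the text names up to 4 called genes of each pathway list with the largest changes and at least 10 CPM in the higher group, and the 5 genes of highest r for each of the 5 among those with at least 10 CPM in some group; genes of cell type lists are given as values. One gene that the rule on r names is not reported here. Promoter windows came from RefSeq and were cut to bases upstream of both the RefSeq and the GENCODE start; CXCR4 and KIT had at least 100 such bases.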

Additional observations from a re-analysis of the deposited data

Results flagged for a closer look

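For 3 of the 5 genes the interaction, BMP4 against Activin+BMP4 between 48 h and 96 h, was called by edgeR's quasi-likelihood test. Of all tested genes 15.7% were called. All 5 genes had an adjusted p under 0.05 in that test, but CXCR4 (-0.99 ± 0.39, SE) and CXCL12 (-0.48 ± 0.11) were under the 2-fold limit. For ACKR3 the interaction was -4.13 on the log2 scale: its level hardly moved with BMP4 (-0.07 ± 0.16, SE) and rose with Activin+BMP4 (4.07 ± 0.17). For KIT it was -2.43, with -0.62 ± 0.06 for BMP4 and 1.80 ± 0.06 for Activin+BMP4. For KITLG it was 1.06, with -0.55 ± 0.07 for BMP4 and -1.61 ± 0.06 for Activin+BMP4. Groups of 3 libraries were too small for a search for single outlying values.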

How the results depend on the processing

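Of 135 results for the 5 genes, 125 kept their side of the call threshold under all 8 other settings and with each library left out. None of the 135 changed direction where called, and direction was not compared where neither fit called the gene. KITLG at 72 h of Activin+BMP4 against untreated cells (1.00 on the log2 scale) lost its call with RLE factors (0.99), no filter (1.00), the stricter filter (0.98), DESeq2 (0.99), only the groups compared (0.98) and without the libraries that stand apart (1.00), and ran from 0.96 to 1.05 with each library left out. CXCL12 at 96 h of BMP4 against Activin+BMP4 (1.03) was 1.00 and not called without scaling factors, and 0.93 to 1.22 with a library left out. The CXCR4 interaction (-0.99) was called without scaling factors (-1.03) and without the libraries that stand apart (-1.24), and ran from -1.22 to -0.81 with a library left out. CXCL12 between 96 h and 48 h of Activin+BMP4 (-0.85) was called without the libraries that stand apart (-1.03), and ran from -1.03 to -0.75. With a library left out, CXCR4 at 12 h of BMP4 against Activin+BMP4 ran from -1.75 to -1.37, CXCL12 at 72 h of BMP4 against Activin+BMP4 from 0.78 to 1.01, CXCR4 of BMP4 against untreated cells from -1.31 to -0.79 at 6 h, -1.11 to -0.67 at 24 h and -1.28 to -0.83 at 36 h, and ACKR3 at 6 h of Activin+BMP4 against untreated cells from 0.97 to 1.34. KITLG and CXCL12 lie at the 2-fold limit here, and otherwise the cause was not tested.

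Replicate numbers only share a number: deviations of same-numbered libraries from their group means had a median correlation of -0.00536 (range -0.16 to 0.282, 19 of 408 pairs over 0.1). The replicate block changed no call of the 5 genes and moved no count of all genes called by over 1.5 times; for CXCR4 at 96 h of BMP4 against Activin+BMP4 the fit with the block gave -4.02. The stricter filter moved that count by over 1.5 times in 23 of 27 comparisons (3052 genes called at 96 h of BMP4 against Activin+BMP4 became 1808), no filter in 4 of 27, and DESeq2 (7 genes) and only the groups compared (19) each at 1 h of BMP4 against Activin+BMP4, where the main count was 1.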
